A study of Mus musculus with 15 samples.

Results

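The genes described here encode the protein shell of plasma lipoproteins and the machinery that loads lipid onto it: the apolipoproteins Apoa1, Apoa2, Apoa4, Apoa5, Apob, Apoc2, Apoc3 and Apoe, and the assembly genes Mttp and Tm6sf2. They were picked by name as genes of a known pathway, with earlier results of these data known, and all 10 were among the 16330 genes listed in the table and among the 13570 genes tested. RNA-seq was done on 15 mouse liver libraries in 4 groups that combine a construct with a gavage: LbNOX with ethanol (3 libraries, M13 to M15), LbNOX with water (4, M6 to M9), luciferase with ethanol (3, M10 to M12) and luciferase with water (5, M1 to M5), with liver collected 6 h after the gavage in every group. LbNOX is a water-forming bacterial NADH oxidase that turns NADH into NAD+, and luciferase, which emits light, was the control construct. The series' design text speaks of wild-type and ChREBP animals where the titles of the samples and the header of the table name the 2 constructs, and the ChREBP genotype of the animals therefore stays unknown here. Strain, age, sex and the way the constructs were delivered are not given in the sources used here, nor is it stated whether each library is a different animal, and p-values therefore refer only to the spread among the libraries given.

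The liver exports triglyceride as very-low-density lipoprotein. In the endoplasmic reticulum, microsomal triglyceride transfer protein (Mttp) lipidates apolipoprotein B as it is made, Tm6sf2 serves the later enrichment of the particle with lipid, and exchangeable apolipoproteins then join the particle and govern its hydrolysis and uptake in the circulation. Apolipoproteins A-I and A-II are the main structural proteins of high-density lipoprotein, which returns cholesterol to the liver. Ethanol is oxidised in hepatocytes with the formation of NADH, the cofactor that LbNOX consumes.

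Values are normalized counts, that is reads divided by a factor for each library that corrects for depth. Libraries held 10.6 to 23.7 M reads once those factors were undone, and the 10 genes together took 1.44% to 2.31% of a library's normalized counts. The tissue label was checked with hepatocyte markers: 7 of 8 were in the table, their summed level was 503936 to 912118 normalized counts in every library, and none was called in any comparison. A gene was called where limma's Benjamini-Hochberg adjusted p was below 0.05, with log2 differences taken on log2(normalized count + 1). As the tissue is bulk liver, fewer cells of a type and less RNA per cell cannot be told apart.

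Some libraries stood apart. Genes of the intestinal epithelium (Vil1, Sis, Lct, Alpi and Cdh17, a subset of the enterocyte list picked after its values were seen) summed to 537 normalized counts in M10 and 335 in M12, against 11.7 in M11, the other luciferase ethanol library. They summed to 4.92 to 10.9 in LbNOX ethanol, 2.52 to 59.4 in LbNOX water (highest in M7) and 3.52 to 16.0 in luciferase water libraries. The whole enterocyte list of 10 genes summed to 3436 to 5807 in luciferase ethanol and 3800 to 4820 in luciferase water libraries, carried by Fabp2 and Anpep, which were above 1000 in all libraries. Of its 7 tested genes, Lct and Slc5a1 were higher after ethanol in luciferase livers, while the marker Rbp2 was at 0 in M10, M11 and M12. Fabp2 in M10 and M12 (1618 and 1521) lay within its luciferase water range of 1501 to 2818. Muc13 in them (72.6 and 56.1) lay within its range of 24.6 to 387. Anpep was above its luciferase water range of 1288 to 2320 in M10 (3419) but not in M12 (1372). Slc5a1 had 160, 70.0 and 152 normalized counts in M10, M11 and M12, against 18.3 to 30.6 in luciferase water libraries, so M11 was above that range for this marker, although Sis, Alpi and Cdh17 were at 0 in it. Enterocytes also express Mttp, Apob, Apoa1 and Apoa4, so results that rest on M10 and M12 are given with and without them. Separately, M3 (luciferase water) and M8 (LbNOX water) had the highest summed Kupffer cell markers of all libraries, 4489 and 3763 normalized counts, and the highest summed pancreas and fat markers, 657 and 4600. Over the whole Kupffer cell list of 10 genes in the table, sums were 1856 to 3176 in LbNOX ethanol, 1947 to 3763 in LbNOX water, 1595 to 2083 in luciferase ethanol and 1793 to 4489 in luciferase water libraries. Of its 9 tested genes none was called, 8 had log2 differences below 0 after ethanol in luciferase livers (median -0.41), and 9 were above 0 in LbNOX against luciferase livers after ethanol (median 0.49). The 3176 was in M15. Endothelial cell markers summed to 3482 in M8, 3199 in M3 and 3064 in M15, against 1681 to 2427 in the other libraries. Cholangiocyte markers summed to 1694 in M15, 1577 in M3 and 1398 in M8, against 640 to 1084 in the others. No gene of these lists was called in any comparison. Neutrophil markers summed to 457 in M13 (LbNOX ethanol), against 20.2 to 169 in the other 14 libraries. Hepatocyte markers were lowest in M8 and highest in M9. The part of these markers in the results was not tested.

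The 10 genes spanned a wide range of abundance. Exon length was that of all exons annotated for a gene in GENCODE vM21, merged. The transcripts made in these livers were not determined, so the order depends on this annotation. Per kilobase of exon, the mean level over the 15 libraries was highest for Apoe, at 56493 ± 12382 normalized counts per kb (SD), followed by Apoa2 at 39291 ± 13661 and Apoa1 at 24450 ± 6738. Apoc3 (12123 ± 3633), Apob (5292 ± 958), Apoc2 (3673 ± 678), Apoa5 (3240 ± 1170) and Apoa4 (2093 ± 524) came next on the same scale. The assembly genes closed the order, Mttp at 1943 ± 419 and Tm6sf2 at 268 ± 84.5 normalized counts per kb. Mttp and Tm6sf2 were the only neighbours in this order whose ranges over libraries were apart. Apoc2 was above Apoa5 in 9 of 15 libraries, and Apoa4 above Mttp in 9 of 15, so these pairs did not differ beyond their spread, while the other neighbours kept their order in 13 to 15 of 15 libraries with ranges that overlapped. Apob, the largest transcript, had the second highest normalized count after Apoe but only the fifth highest level per kb.

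**Figure D1:**
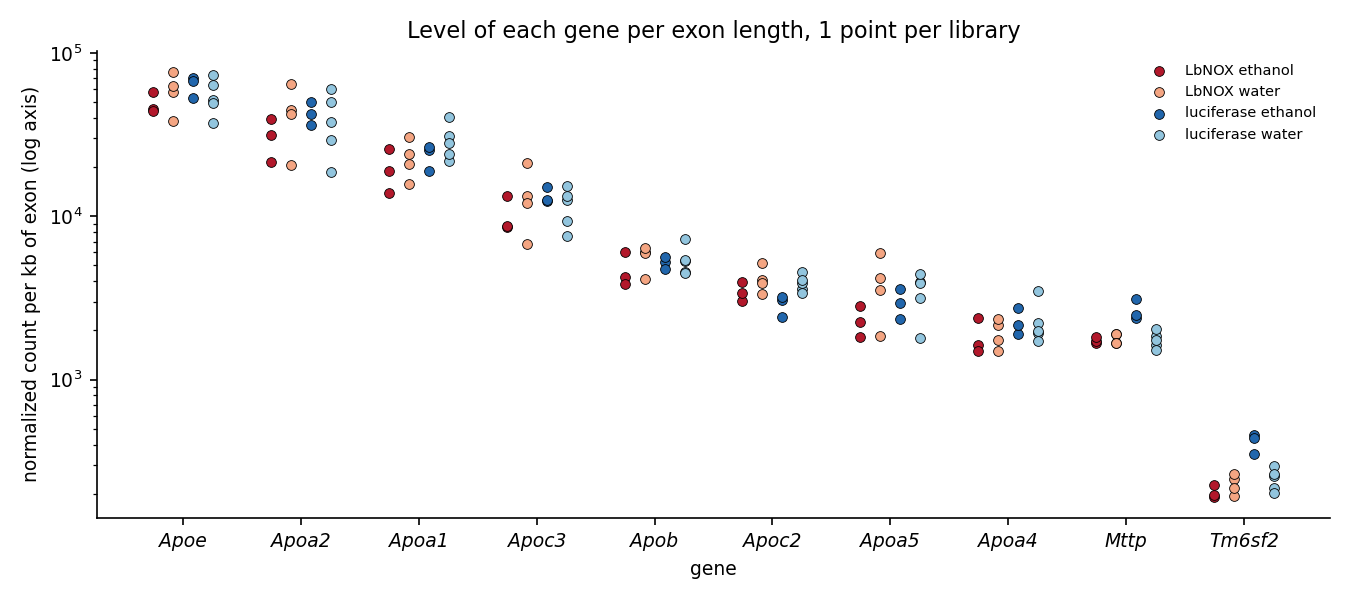
Level of each of the 10 genes in normalized counts per kb of exon (log axis), 1 point per library, with LbNOX ethanol, LbNOX water, luciferase ethanol and luciferase water side by side. Means over all libraries run from 56493 per kb for Apoe to 268 per kb for Tm6sf2, and Mttp and Tm6sf2 are the only neighbours whose points do not overlap.

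Mttp and Tm6sf2 were the members that ethanol raised in luciferase livers. Mttp, which transfers triglyceride and phospholipid to nascent apolipoprotein B, had 19269, 14875 and 15467 normalized counts after ethanol (M10 to M12), against 10168, 11457, 9478, 12619 and 10799 after water (M1 to M5). Every ethanol library was above every water library. The mean was 16537 ± 2385 after ethanol (SD, n = 3) and 10904 ± 1208 after water (SD, n = 5), a log2 difference of 0.60 (SE 0.13) or 1.51-fold (limma, adjusted p = 0.00904). Tm6sf2, an endoplasmic reticulum membrane protein needed for normal lipid loading of the particle and known for a human variant linked to fatty liver, had 867, 669 and 831 normalized counts after ethanol, against 489, 411, 384, 561 and 502 after water. Its groups did not overlap either, and its mean was 789 ± 105 after ethanol (SD, n = 3) and 469 ± 71.5 after water (SD, n = 5), a log2 difference of 0.75 (SE 0.15) or 1.69-fold (limma, adjusted p = 0.00583). In this comparison 7.75% of all genes tested were called, 4.62% as higher and 3.13% as lower, and among the 10 genes 2 were called, both higher. Their log2 differences were smaller than the median of 1.00 over all genes called higher.

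In LbNOX livers the same genes did not pass the test after ethanol. Mttp had 10316, 10700 and 11298 normalized counts after ethanol (M13 to M15), against 11785, 11760, 10429 and 10457 after water (M6 to M9), a log2 difference of -0.04 (SE 0.13, 95% interval -0.32 to 0.24, limma adjusted p = 0.924). Tm6sf2 had 430, 365 and 375 normalized counts after ethanol, against 471, 368, 414 and 500 after water, a log2 difference of -0.16 (SE 0.15, 95% interval -0.49 to 0.17, limma adjusted p = 0.718). For both genes the ethanol and water libraries overlapped, as they did for the other 8 genes; of all genes tested, 5.42% were apart in the higher and 5.49% in the lower direction. Of all genes tested, 0.00737% were called in this comparison, so the absence of calls among the 10 genes (0 of 10) is also what nearly all genes showed. At an unadjusted p below 0.05, limma counted 1571 genes here and none of the 10. By adjusted p below 0.05, edgeR on recovered reads called 1 gene and DESeq2 282, and neither called any of the 10.

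**Figure D2:**
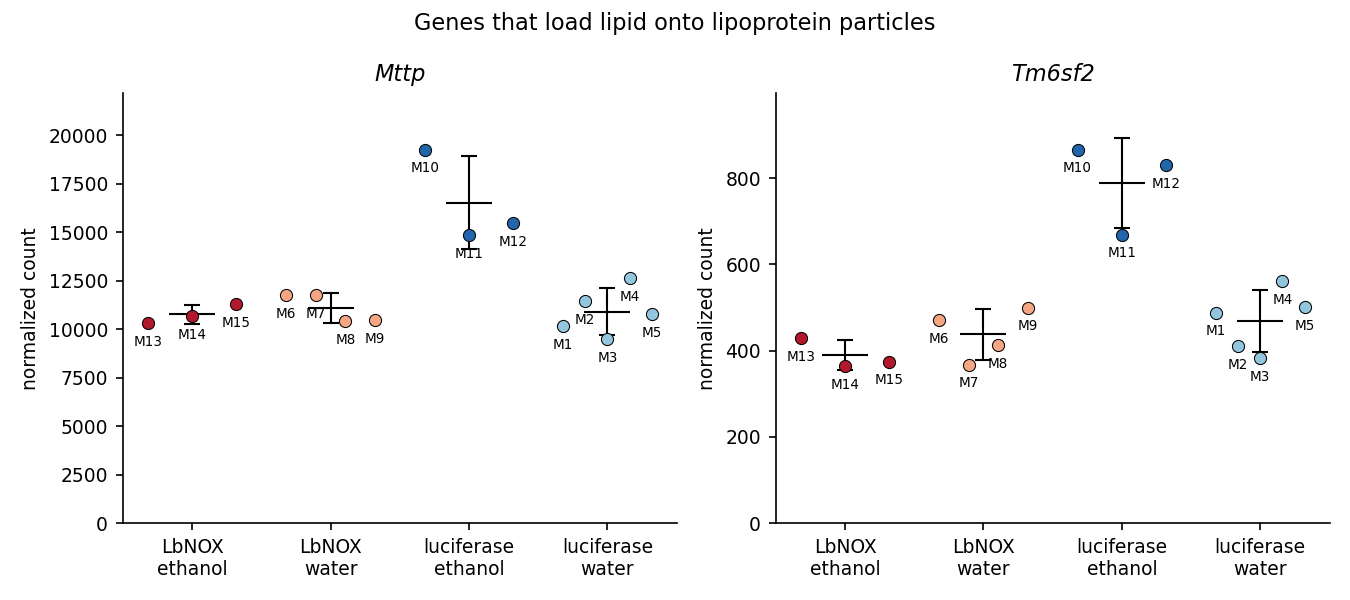
Normalized counts of Mttp (left) and Tm6sf2 (right) in each library, with LbNOX ethanol, LbNOX water, luciferase ethanol and luciferase water from left to right; points are libraries, horizontal bars the group mean and error bars the SD. The luciferase ethanol libraries lie from 14875 to 19269 for Mttp and from 669 to 867 for Tm6sf2, above every library of the other groups.

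The difference between the ethanol effects was tested directly. For Tm6sf2 the ethanol effect in LbNOX livers minus that in luciferase livers was -0.91 on the log2 scale (SE 0.21, limma adjusted p = 0.0476), and for Mttp it was -0.64 (SE 0.18, limma adjusted p = 0.0972). Tm6sf2 was thus called and Mttp was not, in a comparison that called 1.67% of all genes tested, 0.427% as higher and 1.25% as lower. The Tm6sf2 call lies close to the threshold: it was lost when any 1 of 12 libraries was left out, that is any but M4, M8 and M11, with adjusted p of up to 0.141. Set side by side after ethanol, LbNOX livers had less of both transcripts than luciferase livers, with a mean of 10771 ± 495 (SD, n = 3) against 16537 ± 2385 normalized counts (SD, n = 3) for Mttp, a log2 difference of -0.61 (SE 0.14, limma adjusted p = 0.0213). Tm6sf2 averaged 390 ± 35.3 in LbNOX ethanol livers and 789 ± 105 in luciferase ethanol livers (SD, n = 3 each), a log2 difference of -1.01 (SE 0.17, limma adjusted p = 0.00332). This comparison called 6.06% of all genes, 2.24% as higher and 3.82% as lower, and 2 of the 10 genes, both lower. Both were also apart from the luciferase group in the lower direction, as were 15.4% of all genes tested, and none of the 10 was apart in the higher direction, as were 14.1%. The comparison shares its luciferase ethanol libraries with the comparison of ethanol against water, and is not independent of it. The Mttp call after ethanol was lost without M10, M12, M13, M14 or M15, with adjusted p of 0.0522 or more. After water, LbNOX against luciferase gave log2 differences of 0.03 for Mttp and -0.09 for Tm6sf2, none of the 10 genes was called or had groups apart, and 0% of all genes were called (0.317% were apart in the higher and 0.619% in the lower direction). There limma counted 440 genes at an unadjusted p below 0.05, and by adjusted p below 0.05 edgeR called 0 genes and DESeq2 18.

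The rise of Mttp and Tm6sf2 was set beside the intestinal markers. M11, whose 5 summed intestinal markers were within the range of the luciferase water libraries, had 14875 normalized counts of Mttp and 669 of Tm6sf2, above the highest luciferase water values of 12619 and 561. It also had the lowest value of both genes among the 3 luciferase ethanol libraries. Without M10 and M12, with M11 as a lone library assumed to vary like the other groups, the log2 difference after ethanol was 0.45 (SE 0.18, limma adjusted p = 0.419) for Mttp and 0.53 (SE 0.22, limma adjusted p = 0.451) for Tm6sf2, and 65 genes were called in place of 1052. No member was then called in any comparison. Without M10 alone, Mttp had a log2 difference of 0.48 and an adjusted p = 0.0726, while Tm6sf2 remained called. With only the groups compared in the fit, the adjusted p of Mttp was 0.0626. The part that intestinal RNA has in these values was not tested beyond these omissions. M7, the LbNOX water library with 59.4 normalized counts of the markers, had 11760 of Mttp and 368 of Tm6sf2, below every luciferase ethanol library for both genes. Its marker sum was below the 335 of M12 and 537 of M10, and its construct and gavage differ, so it cannot decide this.

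**Figure D3:**
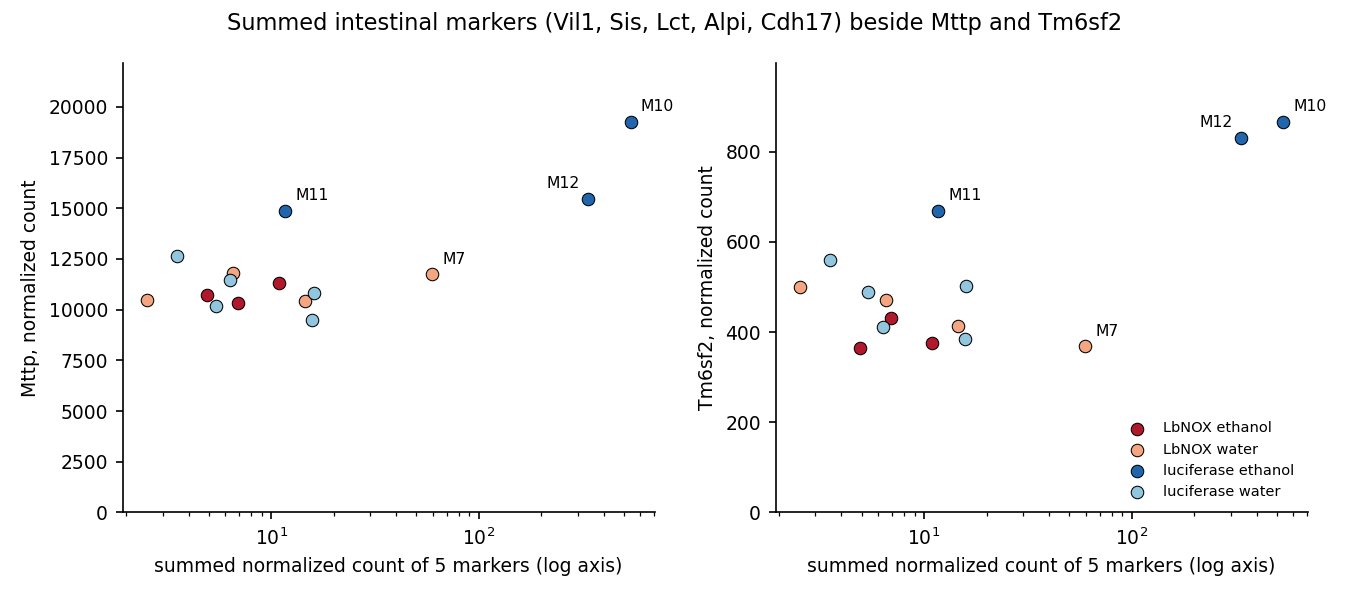
Normalized counts of Mttp (left) and Tm6sf2 (right) against the summed normalized count of 5 intestinal markers on a log axis, 1 point per library, coloured by group. M10 and M12 have high markers and high values of both genes, while M11, at 11.7 summed marker counts, lies above all luciferase water libraries as well.

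The RefSeq promoter window of Mttp on GRCm38.p6, 250 bases before to 50 after its start, lies within the span that GENCODE vM21 gives the gene (chr3:138089854-138144968, minus strand), and is shown because Mttp is the called member with such a window. On this strand the gene's outermost start is at 138144968, so the window belongs to a start inside the span. Which start these livers used was not examined. The windows of Apob, the protein that Mttp loads, and of Apoa5 are shown beside it as members that were not called. Capitals mark matches to the motifs searched, which were CACGTG, the core of an E-box, AGGTCA, a nuclear receptor half-site, and CAAAGTCCA, an HNF4 core, on both strands, and TATAAA on the gene's strand.
Mttp, chr3:138143369-138143668, minus strand: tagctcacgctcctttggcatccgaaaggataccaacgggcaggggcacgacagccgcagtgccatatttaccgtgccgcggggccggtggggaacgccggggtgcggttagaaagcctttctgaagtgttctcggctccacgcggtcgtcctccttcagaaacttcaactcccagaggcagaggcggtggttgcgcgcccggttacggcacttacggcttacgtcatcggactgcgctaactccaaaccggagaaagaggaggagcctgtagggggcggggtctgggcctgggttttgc
Apob, chr12:7977427-7977726, plus strand: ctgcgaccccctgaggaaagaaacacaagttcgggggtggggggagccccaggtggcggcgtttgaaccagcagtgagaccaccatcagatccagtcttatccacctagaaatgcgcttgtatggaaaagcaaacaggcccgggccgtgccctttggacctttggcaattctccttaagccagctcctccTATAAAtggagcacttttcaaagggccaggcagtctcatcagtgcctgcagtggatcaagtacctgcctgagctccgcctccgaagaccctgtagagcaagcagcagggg
Apoa5, chr9:46268358-46268657, plus strand: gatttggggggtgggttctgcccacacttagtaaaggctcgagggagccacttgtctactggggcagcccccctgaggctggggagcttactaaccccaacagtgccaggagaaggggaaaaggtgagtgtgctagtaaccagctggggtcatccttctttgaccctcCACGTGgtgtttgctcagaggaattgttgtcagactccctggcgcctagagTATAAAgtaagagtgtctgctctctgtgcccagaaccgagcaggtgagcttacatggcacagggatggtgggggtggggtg
The Mttp window held none of the 4 motifs, the Apob window held TATAAA at 60 bases before the start, and the Apoa5 window held CACGTG at 82 and TATAAA at 31 bases before the start. Windows were found for 8 of the 10 genes, 12 windows in all, without Apoc3 and Tm6sf2. Among these 8, CACGTG was found for Apoa5 only, AGGTCA for Apoa2 and Apoc2, CAAAGTCCA for none, and TATAAA for Apoa2, Apoa5, Apob and Apoe. Counted by window, 2 of the 12 held CACGTG, 2 AGGTCA, 0 CAAAGTCCA and 5 TATAAA. The 2 with CACGTG are overlapping windows of Apoa5 that hold the same site, and only 1 of them is shown. Of all 32851 windows, 7.15% held CACGTG, 16.3% AGGTCA, 0.475% CAAAGTCCA and 8.32% TATAAA. A match or its absence describes these letters in this window and nothing of any factor.

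No apolipoprotein gene was called in any comparison. Of all genes tested, 7.75% were called after ethanol in luciferase livers and 0.00737% in LbNOX livers. Between constructs 0% were called after water and 6.06% after ethanol, and 1.67% for the difference between ethanol effects. After ethanol in luciferase livers, apolipoprotein log2 differences ran from -0.43 for Apoc2 to 0.23 for Apoc3, with a median of -0.01. Of the 8, 4 were above 0 and 4 below, with Apoa4 below 0 under quantile normalization. Apob (chr12:7977648-8016835, plus strand), the structural protein of very-low-density lipoprotein, had 73013, 78365 and 66382 normalized counts after ethanol, against 74610, 75681, 63192, 62661 and 101778 after water. The ethanol libraries lay inside the range of the water libraries, and the log2 difference was -0.04 (SE 0.20, 95% interval -0.47 to 0.40, limma adjusted p = 0.951). The Mttp count relative to the Apob count averaged 22.9% ± 3.72 in luciferase ethanol (SD, n = 3) and 14.9% ± 3.45 in luciferase water libraries (SD, n = 5), with the lowest ethanol library, M11 at 19.0%, below the highest water library, M4 at 20.1%. In LbNOX livers it averaged 17.1% ± 4.14 after ethanol (SD, n = 3) and 14.5% ± 2.63 after water (SD, n = 4). The LbNOX ethanol libraries reached 21.0% in M15, above M11, so the groups overlapped. These ratios are of counts not divided by length, and were not tested.

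The genes of high-density lipoprotein varied more between libraries than between treatments. Apoa1, its main structural protein and the activator of lecithin-cholesterol acyltransferase, had 31300, 33022 and 23535 normalized counts after ethanol in luciferase livers, against 26987, 29906, 38545, 34688 and 50168 after water. Its log2 difference was -0.28 (SE 0.26, 95% interval -0.83 to 0.26, limma adjusted p = 0.597), with overlapping groups. Apoa2, the other main structural protein, ranged from 19301 to 26800 after ethanol, within the 10045 to 32472 seen after water, with a log2 difference of 0.23 (SE 0.38, limma adjusted p = 0.806). In LbNOX livers, Apoa1 ranged from 17145 to 32005 after ethanol and from 19338 to 37886 after water, and Apoa2 from 11493 to 21092 after ethanol and from 11130 to 34512 after water. Neither gene's groups were apart in any of the pairs compared.

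Apoc2, the obligate activator of lipoprotein lipase, had the lowest log2 difference of the 10 genes after ethanol in luciferase livers but did not pass the test. It had 1973, 2501 and 2610 normalized counts after ethanol, against 2912, 3189, 3697, 2772 and 3315 after water, so that every ethanol library was below every water library. The log2 difference was -0.43 (SE 0.15, 95% interval -0.76 to -0.10) with an unadjusted p = 0.0137 and an adjusted p = 0.110 (limma). It was the 1 gene of the 10 whose groups were apart in the lower direction, as were 6.39% of all genes, while Mttp and Tm6sf2 were apart in the higher direction, as were 8.32%. In M11 alone, without M10 and M12, the difference was -0.34 (SE 0.23, limma adjusted p = 0.708). In LbNOX livers Apoc2 had 2445, 3207 and 2744 normalized counts after ethanol and 3295, 3192, 2714 and 4226 after water, which overlapped, and the difference between the ethanol effects was 0.18 (SE 0.22, limma adjusted p = 0.737). Reads of Apoc2 are uncertain, since a readthrough locus annotated in GENCODE vM21 (Gm44805) spans Apoc2 and its neighbour Apoc4 and was not analysed here.

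Apoc3 and Apoa5 act on lipoprotein lipase in opposite ways, Apoc3 as an inhibitor and Apoa5 as an activator of triglyceride clearance. Apoc3 had 12550, 15239 and 12681 normalized counts after ethanol in luciferase livers, against 9465, 12799, 7700, 13502 and 15536 after water, with a log2 difference of 0.23 (SE 0.31, limma adjusted p = 0.741). Apoa5 had 7440, 9080 and 5888 normalized counts after ethanol, against 9963, 9889, 4527, 8016 and 11143 after water, with a log2 difference of -0.18 (SE 0.34, limma adjusted p = 0.835). The groups of both genes overlapped. The ratio of Apoc3 to Apoc2 counts was 4.86 to 6.36 in luciferase ethanol libraries and 2.08 to 4.87 in luciferase water libraries, with M12 and M4 nearly equal at that boundary. In LbNOX livers the ratio was 3.23 to 4.18 after ethanol and 2.54 to 5.07 after water. Apoa5 had the lowest log2 difference of the 10 genes in LbNOX livers after ethanol, -0.67 (SE 0.36, 95% interval -1.43 to 0.10, limma adjusted p = 0.498), with 4584, 7091 and 5667 normalized counts after ethanol, against 10616, 8900, 4657 and 15094 after water. All but 1 of those water libraries, M8, were above every ethanol library.

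Apoa4 and Apoe did not separate by treatment. Apoa4, a protein of chylomicrons and high-density lipoprotein that is made mainly by the intestine and, in rodents, also by the liver, had 3442, 3897 and 4988 normalized counts after ethanol in luciferase livers, against 6350, 3521, 3112, 4016 and 3592 after water. Its log2 difference was 0.03 (SE 0.23, limma adjusted p = 0.970). Of the 2 libraries with high intestinal markers, M10 had the lowest Apoa4 of the luciferase ethanol group and M12 the highest. Any part of intestinal RNA in these values was not tested. Apoe, the ligand by which remnant particles are taken up by the liver, had 149857, 143141 and 112823 normalized counts after ethanol, against 109759, 105897, 79615, 136606 and 157701 after water, with a log2 difference of 0.23 (SE 0.24, limma adjusted p = 0.671). In LbNOX livers, Apoe ranged from 93806 to 123413 after ethanol and from 82378 to 163423 after water. Genes annotated on the opposite strand overlap Apoa4 and Apoa5, and since it is not stated whether counting used strand, reads of such partners cannot be told apart.

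In LbNOX livers all 10 genes had a log2 difference below 0 after ethanol, from -0.67 for Apoa5 to -0.04 for Mttp, with a median of -0.24, beside -0.004 over all genes; with quantile normalization Mttp (0.10) and Apoa4 (0.02) were above 0. None passed the test, the smallest adjusted p was 0.498, and the water group holds both M8, the lowest of its group for 9 of the 10 genes, and M9, the highest for 9. The median deviation of the 8 apolipoproteins from the group mean was -0.53 in M8 and 0.45 in M9 on the log2 scale. For the 8 apolipoproteins the difference between the ethanol effects ran from -0.65 for Apoa2 to 0.18 for Apoc2, with 6 of 8 below 0 (4 of 8 with quantile normalization, where Apoa4 and Apob changed sign) and a smallest adjusted p of 0.575 (limma). After ethanol, LbNOX against luciferase gave apolipoprotein differences of -0.51 for Apoa2 to 0.25 for Apoc2, and after water of -0.36 for Apoa1 to 0.14 for Apoa2, none of them called. The 95% intervals reached from -1.82 to 0.85 for the difference between ethanol effects, so changes of the size seen for Tm6sf2 would lie within them for some apolipoproteins.

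**Figure D4:**
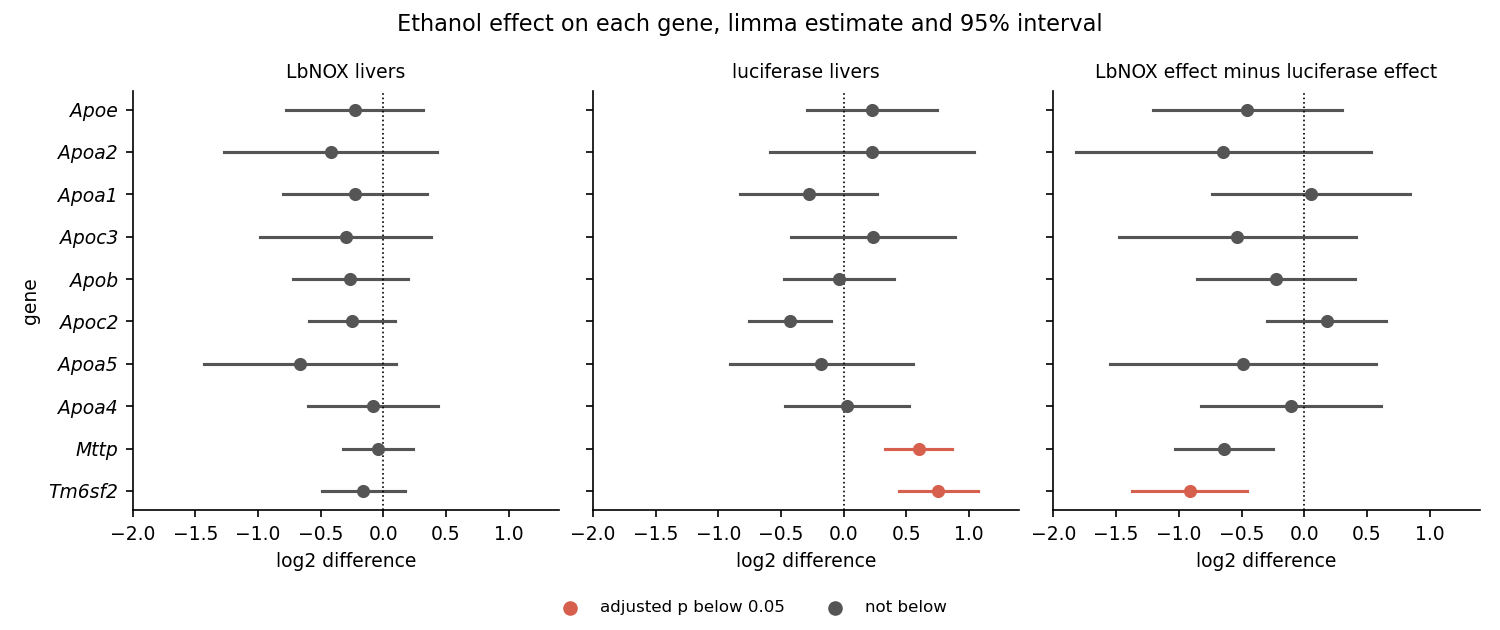
Log2 difference of each gene after ethanol against water with its 95% interval (limma), in LbNOX livers (left) and luciferase livers (middle), and the LbNOX effect minus the luciferase effect (right). Mttp (0.60) and Tm6sf2 (0.75) are called in luciferase livers, Tm6sf2 (-0.91) is called for the difference, and every apolipoprotein interval spans 0 except that of Apoc2 in luciferase livers.

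Among libraries of the same group, 5 apolipoprotein genes moved together, a set picked from these same correlations and not planned beforehand. After subtraction of each group's mean log2 value, Apoa2, Apoa5, Apob, Apoc3 and Apoe had pairwise Pearson r of 0.768 to 0.947 over the 15 libraries (10 pairs). Mttp had r of 0.03 to 0.41 with these 5 genes, and Tm6sf2 0.05 to 0.45, while Apoa1 (0.42 to 0.57), Apoa4 (0.35 to 0.53) and Apoc2 (0.22 to 0.53) lay between. These points share library, depth and the other cells of the tissue, so the values describe the libraries. M8 was the lowest of the LbNOX water libraries for 9 of the 10 genes, with Tm6sf2 the exception, and M3 was the lowest of the luciferase water libraries for 7. These are the libraries with the highest Kupffer cell and pancreas and fat markers; the part of these in the low values was not tested. M9 was the highest of its group for 9 of the 10 genes, M14 for 7 and M5 for 6. Without M3 and M8, Mttp (0.55, adjusted p = 0.0149) and Tm6sf2 (0.68, adjusted p = 0.0138) were still called after ethanol in luciferase livers (limma), and no apolipoprotein was called.

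**Figure D5:**
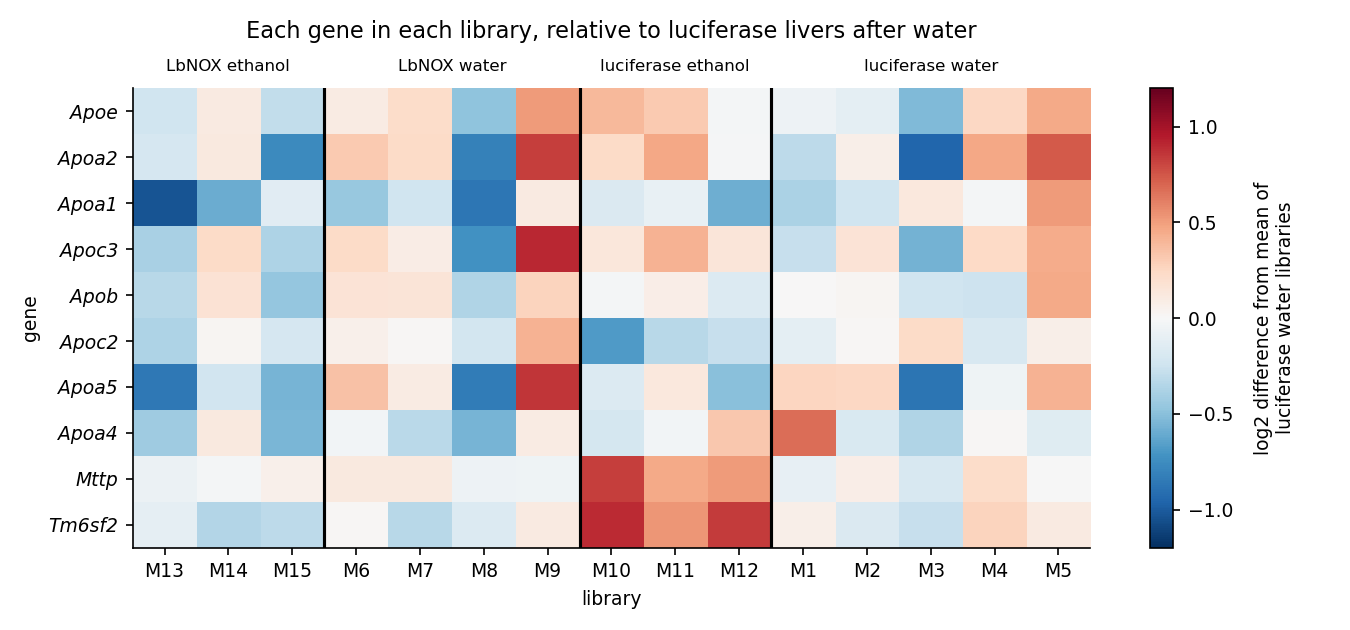
Log2 difference of each gene in each library from the mean of the luciferase water libraries, with genes in rows and libraries in columns, grouped as LbNOX ethanol, LbNOX water, luciferase ethanol and luciferase water. Mttp and Tm6sf2 are high in M10, M11 and M12, whereas most apolipoproteins are low in M3 and M8 and high in M5 and M9.

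Genes beside the members were examined for calls after ethanol. On chromosome 9, Apoa1, Apoc3, Apoa4 and Apoa5 lie within 43.3 kb (chr9:46228580-46271919, GRCm38), and none of them, nor the flanking genes Sik3 (0.56, adjusted p = 0.134) and Bud13 (-0.24, adjusted p = 0.651), was called after ethanol in luciferase livers (limma, log2 differences). On chromosome 7, Apoc2, Apoc4, Apoc1 and Apoe lie within 27.6 kb (chr7:19671579-19699188), and none of these or of the flanking genes Tomm40 and Clptm1 was called. Within that cluster Apoc2 (-0.43) and Apoc4 (0.15) differed in sign, and the ratio of Apoc2 to Apoc4 counts was 0.483 to 0.754 in luciferase ethanol and 0.715 to 1.44 in luciferase water libraries. Tm6sf2 (chr8:70072924-70080066, plus strand) lies between Sugp1, a splicing factor gene, and Hapln4, a hyaluronan and proteoglycan link protein gene 3.39 kb downstream. Neither was among the neighbours first planned, and Hapln4 was chosen after its values were seen. Hapln4 had 300.2, 140 and 323 normalized counts after ethanol in luciferase livers, against 23.98, 48.2, 37.4, 54.0 and 47.0 after water, a log2 difference of 2.53 (SE 0.31, limma adjusted p = 0.000212). In LbNOX livers it had 99.6, 124 and 108 after ethanol, against 41.1, 26.6, 41.6 and 39.1 after water, a log2 difference of 1.56 (SE 0.32, limma adjusted p = 0.0825), with groups that did not overlap; DESeq2 called it there (adjusted p = 0.00118). The difference between these effects was -0.96 (adjusted p = 0.332). Without M10 and M12, the Hapln4 difference in luciferase livers was 1.76 (SE 0.41, limma adjusted p = 0.108) and was no longer called, and the difference between effects was -0.20 (adjusted p = 0.904). Sugp1 had 375, 405 and 401 normalized counts after ethanol in luciferase livers, against 276 to 352 after water, groups that did not overlap, with a log2 difference of 0.35 (adjusted p = 0.0736, or 0.0222 with DESeq2). In LbNOX livers Sugp1 had 426, 395 and 341 after ethanol, against 290, 339, 298 and 306 after water, a log2 difference of 0.33 (limma adjusted p = 0.307). Tm6sf2 and both of its neighbours thus had higher values in every luciferase ethanol library than in any luciferase water library. Of all genes tested, 8.32% were apart in this direction. In LbNOX livers both neighbours were apart in the higher direction, as were 5.42% of all genes, while Tm6sf2 overlapped (log2 difference -0.16). Any part of position in these values was not tested.

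The rest of the pathway was described from lists of genes, by the count called in each direction. Of 22 tested genes of lipoprotein assembly and export, none rose after ethanol in luciferase livers and 2 fell, in a comparison that called 4.62% of all genes as higher and 3.13% as lower, the median log2 difference being -0.09, beside 0.01 over all genes. The 2 are the enzyme and its cofactor that edit Apob mRNA to give the shorter apolipoprotein B-48. Apobec1, the cytidine deaminase, had 121, 219 and 160 normalized counts after ethanol (M10 to M12), against 270 to 440 after water, a log2 difference of -1.05 (SE 0.24, limma adjusted p = 0.0163). A1cf, its RNA-binding partner, had 205, 331 and 487 after ethanol, against 533 to 895 after water, a log2 difference of -1.09 (SE 0.24, limma adjusted p = 0.0133). Both were higher in LbNOX than in luciferase livers after ethanol, Apobec1 by 1.12 (adjusted p = 0.0268) and A1cf by 1.01 (adjusted p = 0.0408) on the log2 scale, and neither was called for the difference between ethanol effects (adjusted p = 0.148 each). The edited sites of Apob were not analysed here. The coat proteins that carry particles out of the endoplasmic reticulum were among the genes not called, among them Sar1b (-0.13), Sec24a (-0.16) and the cargo receptor Surf4 (-0.05, log2 differences). The coat genes Sec13 and Sec23a, also not called, were lower in every luciferase ethanol library than in any luciferase water library. Sec13 had 863 to 882 against 965 to 1072 normalized counts, and Sec23a 1614 to 1897 against 1928 to 2304. Of all genes tested, 6.39% were apart in this direction.

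Of 13 tested genes of lipases and particle remodelling, 1 rose and none fell after ethanol in luciferase livers. In this comparison 4.62% of all genes were called as higher and 3.13% as lower. This was Abca1, the transporter that lipidates apolipoprotein A-I at the start of high-density lipoprotein formation, which had 10161, 7435 and 9451 normalized counts after ethanol, against 3964, 4792, 5220, 4322 and 3783 after water. All ethanol libraries, M11 included, were above all water libraries, with a log2 difference of 1.03 (SE 0.18, limma adjusted p = 0.00326). In LbNOX livers Abca1 ranged from 4298 to 5938 after ethanol and from 3408 to 5940 after water, and after ethanol it was lower in LbNOX than in luciferase livers by a log2 difference of -0.87 (adjusted p = 0.0243), while the difference between ethanol effects was -0.97 (adjusted p = 0.0862). Its protein partner's gene, Apoa1, was not called. Of 12 tested receptor and uptake genes, none was called after ethanol in luciferase livers, among them Lrp1 (0.17) and Scarb1 (-0.42, adjusted p = 0.0767). The sorting receptor gene Sort1, chosen after its values were seen, was higher in LbNOX than in luciferase livers after ethanol, at 1014, 900 and 1189 against 450, 559 and 507 normalized counts, a log2 difference of 1.03 (SE 0.23, limma adjusted p = 0.0182). Of 10 further apolipoprotein and high-density lipoprotein genes tested, none was called in any comparison, where at most 7.75% of all genes were. Among them were Apoc1 (0.33 after ethanol in luciferase livers), Apom (-0.06) and Pon1 (0.49).

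Of 23 tested transcription factors that are known to act on apolipoprotein genes, 3 rose and 2 fell after ethanol in luciferase livers, where 4.62% of all genes were called as higher and 3.13% as lower. Mlxipl, which encodes the carbohydrate-responsive factor ChREBP, had 6272, 5075 and 6400 normalized counts after ethanol, against 1720, 2071, 1484, 2352 and 3370 after water, a log2 difference of 1.48 (SE 0.28, limma adjusted p = 0.00448). Srebf1, a factor of fatty acid synthesis, had 5912, 2874 and 3112 after ethanol, against 1796, 2037, 1897, 2573 and 1876 after water, a log2 difference of 0.89 (SE 0.19, limma adjusted p = 0.011). For both genes the groups did not overlap. Foxo1, a factor that insulin restrains and that is known to raise Mttp and Apoc3 transcription, rose by 0.64 (SE 0.16, limma adjusted p = 0.0206). Foxa2 fell by 0.93 (SE 0.19, limma adjusted p = 0.00795), and Srebf2, the factor of cholesterol synthesis, fell by 0.38 (SE 0.10, limma adjusted p = 0.0341), all on the log2 scale. Hnf4a, a factor of many liver genes, had a log2 difference of 0.28 (adjusted p = 0.321). After ethanol, 3 of the 23 were lower in LbNOX than in luciferase livers, where 3.82% of all genes were called as lower. These were Mlxipl (-1.22, limma adjusted p = 0.0327), Srebf1 (-1.15, limma adjusted p = 0.00723) and Usf2 (-0.66, limma adjusted p = 0.0113). Srebf1 was the 1 factor called for the difference between ethanol effects (-1.18, limma adjusted p = 0.0486), where 1.25% of all genes were called as lower. No gene of these lists was called in LbNOX livers after ethanol, or between constructs after water. In those 2 comparisons 0.00737% and 0% of all genes were called, so nearly all genes showed the same.

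The calls in these lists were repeated without M10 and M12, where none remained. In M11 alone against the luciferase water libraries, the log2 differences were -0.61 for Apobec1, -1.04 for A1cf, 0.76 for Abca1, 1.27 for Mlxipl, 0.51 for Srebf1, 0.77 for Foxo1, -0.74 for Foxa2 and -0.52 for Srebf2, each in the direction it had with all libraries. The adjusted p ranged from 0.179 for A1cf to 0.612 for Apobec1 (limma). Without M10 alone the calls of Mlxipl, Srebf1 and Abca1 in luciferase livers remained, and those of A1cf, Apobec1, Foxa2, Foxo1 and Srebf2 did not. The call of Apobec1 was also lost without M12 (adjusted p = 0.0589), that of Foxo1 without M11 (0.0860), and that of Srebf2 without M2, M3, M11 or M12 (0.0550 to 0.148). Between constructs after ethanol, the calls of Apobec1, A1cf, Sort1, Abca1, Mlxipl and Usf2 were each lost without M10, while that of Srebf1 remained. All of these but Srebf1 were also lost without at least 1 other library, and that of A1cf with edgeR (adjusted p = 0.0578), without the trend (0.0604) and with only the groups compared (0.0951). The Abca1 call between constructs was lost with quantile normalization (adjusted p = 0.137) and that of Mlxipl without the trend (0.0501). With only the groups compared in the fit, the calls of A1cf (adjusted p = 0.0587), Srebf1 (0.0628) and Srebf2 (0.117) in luciferase livers were lost, as was that of Srebf1 between constructs after ethanol (0.0528). The Srebf1 call for the difference between ethanol effects was lost when any library other than M4 and M11 was left out, without the trend (0.0744) and without the filter on low values (0.0562).

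The genes whose level was most like that of the called members were sought among 9483 genes with a mean of 100 or more. Over the 15 libraries, Mttp was closest to Adarb1 (Pearson r of 0.959), Wbp1l (0.957) and Ulk1 (0.957). Tm6sf2 was closest to Tsnax (0.940), Bckdk (0.939) and Derl1 (0.925). Mttp and Tm6sf2 had r of 0.853 with each other, and a Spearman rho of 0.539. Within groups the r of Mttp and Tm6sf2 was 0.381, so much of the likeness of these 2 genes lay between the luciferase ethanol group and the rest. Within groups Mttp had r of 0.918 with Adarb1, 0.852 with Wbp1l and 0.811 with Ulk1. Tm6sf2 had 0.713 with Tsnax, 0.650 with Bckdk and 0.570 with Derl1.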

How the data were processed

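Liver RNA, extracted with an RNeasy kit and made into libraries with a KAPA mRNA HyperPrep kit per the labels' protocols, was sequenced in 15 libraries. As deposited, the signal values of the table are counts that the authors had divided by a factor of each library (0.723 to 1.67, read from the steps between values). All 244950 values were within 0.001 of whole reads after this was undone (100%). Salmon 1.5.1, DESeq2 1.30.1 and mm10 appear in the submitters' processing notes, without roles. Columns were grouped by their header, which gives a group and a library name.

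In R 4.3.3, limma 3.58.1 was fitted to log2(normalized count + 1), with robust variances that followed a trend in the mean. Genes entered if 3 or more libraries had at least 10, in 1 fit of the 4 groups with 5 contrasts; Benjamini-Hochberg adjustment ran over all 13570 genes. Positions come from GENCODE vM21 (GRCm38) and promoter windows from RefSeq, GRCm38.p6. Named genes are the 10 members, called genes of the pathway lists, the 3 genes most like each called member, and neighbours in the clusters. The neighbours of Tm6sf2 were added to these later. The members and lists were chosen with earlier results of these data known. Alternatives were other filters and pseudocounts, variances without the trend, quantile normalization, only the groups compared, edgeR 4.0.16 and DESeq2 1.42.0 on recovered reads, and libraries left out; the omissions of M10 and M12, and of M7, M10 and M12, were added after the values were seen. Replicates all differed beyond sampling noise, with a chi-square of 26.5 to 143 for each degree of freedom. The constructs' own transcripts were not analysed here, and 23 genes with date-like names are not named. Some genes of the pathway lists are counted but not reported here by name. Recovered reads numbered 10.6 to 23.7 M per library, and the lowest value of any member was 365 normalized counts, so the spread between libraries limits precision more than counting.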

Additional observations from a re-analysis of the deposited data

Results flagged for a closer look

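In 1 of the 20 sets of a member and a group of 4 or 5 libraries, a single library lay far from the rest: M1 had 6350 normalized counts of Apoa4, against 3112 to 4016 in the other luciferase water libraries. Chance alone would give about 1 in 20 such sets. The intestinal markers summed to 5.39 in M1.

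Tm6sf2 differed between constructs in its response to ethanol, by a log2 difference of -0.91 (SE 0.21, limma adjusted p = 0.0476). In LbNOX livers its ethanol effect was -0.16, and in luciferase livers it was 0.75. M10 and M12, in which the sum of the chosen intestinal markers was high, are in the luciferase ethanol group. Without them, with M11 as the lone library of that group, the value was -0.69.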

How the results depend on the processing

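Of the 50 results on a single member in a single comparison, 27 kept their sign and their side of the threshold under each of the 27 alternatives that could be fitted for it. The call of Tm6sf2 after ethanol in luciferase livers was kept under all but the omissions of M10 and M12. Counts of members called changed as follows. After ethanol in luciferase livers the count was 1 in place of 2 with only the groups compared (Mttp adjusted p = 0.0626), 0 without M10 and M12 and without M7, M10 and M12, and 1 to 2 with 1 library left out. For LbNOX against luciferase after ethanol it was 1 in place of 2 with quantile normalization (Mttp adjusted p = 0.103) and with only the groups compared (Mttp adjusted p = 0.0518), 0 without M10 and M12 and without M7, M10 and M12, and 1 to 2 with 1 library left out. For the difference between ethanol effects it was 0 in place of 1 with no trend, with no filter, without M3 and M8, without M10 and M12 and without M7, M10 and M12, 2 with DESeq2 (Mttp adjusted p = 0.00477), and 0 to 1 with 1 library left out. Fewer libraries enter the fits that leave some out, and the other causes were not tested.

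Values that changed sign were uncalled and small. With quantile normalization, Apoa4 was -0.0066, 0.018 and 0.024 in luciferase ethanol, LbNOX ethanol and the difference, Mttp 0.098 in LbNOX ethanol and -0.049 after water, and Apob 0.0086 after ethanol and 0.0034 in the difference. Apoa4 in luciferase ethanol was -0.0049 with edgeR, -0.0028 with DESeq2, -0.062 without M3 and M8, and -0.032 without M10 and M12, with or without M7. Without M3 and M8, Apoa2 was -0.014 in luciferase ethanol and Apoa1 -0.144 in the difference. Without M10 and M12, with or without M7, Apoa5 was 0.126 and Apob 0.075 in luciferase ethanol; Apoa1 in the difference was -0.133, or -0.092 without M7 as well. With 1 library left out, luciferase ethanol values ran from -0.014 to 0.409 for Apoa2, -0.121 to 0.195 for Apoa4 and -0.100 to 0.075 for Apob, and Apoa4 in LbNOX ethanol from -0.284 to 0.051. LbNOX against luciferase after water ran from -0.0999 to 0.454 for Apoa2, -0.129 to 0.436 for Apoa5, -0.015 to 0.195 for Apob, -0.049 to 0.164 for Apoc2, -0.137 to 0.409 for Apoc3, -0.055 to 0.274 for Apoe and -0.018 to 0.086 for Mttp, and the difference from -0.170 to 0.280 for Apoa1 and -0.311 to 0.041 for Apoa4.

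Counts over all genes moved more. Luciferase ethanol gave 1052 calls, 614 with only the groups compared, 1621 with DESeq2, 446 without M10, 623 without M12, 65 without both and 40 without M7 too. LbNOX ethanol gave 1, against 282 with DESeq2, 142 without M3 and M8, 28 without M14, 3 with only the groups compared and 0 to 3 otherwise. After water 0 were called, against 18 with DESeq2, 2 without M3 and M8, and 1 without M8 or M10. After ethanol 822 were called, against 1349 with DESeq2, 299 without M10, 332 without M12, 399 without M13, 320 without M15, 28 without M10 and M12 and 14 without M7 too. The difference gave 227, against 633 with DESeq2, 151 with no trend, 395 without M3 and M8, 9 without M10 and M12, 8 without M7 too, and 64 to 403 with 1 library left out. No paired analysis was possible because the columns carry no replicate number.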

Other observations

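Among the genes of the pathway lists, 3 that are not described above lay just outside the threshold in a comparison and were picked after their values were seen. The very-low-density lipoprotein receptor gene Vldlr had log2 differences of 1.01 in luciferase livers (adjusted p = 0.0729) and 1.00 in LbNOX livers (adjusted p = 0.276) after ethanol (limma). Nr1h3, which encodes the oxysterol receptor LXR alpha, had -0.78 in LbNOX livers (adjusted p = 0.0716) and -0.43 in luciferase livers (adjusted p = 0.0505). Lipg, the endothelial lipase gene, had -1.43 in LbNOX against luciferase livers after ethanol (adjusted p = 0.0527).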
